A study of Mus musculus with 221 samples.

Results

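Among single early 2-cell mouse embryos, 6 carried far more reads on nuclear copies of mitochondrial genes than the rest, and all 6 were sired by males on a high-fat diet (HFD). The members were chosen by a share of reads. The counts of 7 copies that lie side by side on chromosome 1 (Gm28439, Gm10222, Gm28438, Gm28437, Gm10925, Gm28661 and Gm29216) were summed and divided by the same sum plus the counts of the 7 mitochondrial genes they resemble (mt-Nd4, mt-Nd4l, mt-Nd3, mt-Co3, mt-Atp6, mt-Co2 and mt-Co1). HFD embryos with a share above 0.2% are called copy-rich here. Of the HFD embryos 6 met this rule and 116 did not. These 116 and the 99 embryos of males on a low-fat diet (LFD) had lower shares, and 0 LFD embryos passed the threshold.

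Every embryo was made by in vitro fertilization of oocytes with C57BL/6N nuclear DNA and mitochondrial DNA of the Staudach (ST) line, with frozen-thawed sperm of C57BL/6N males fed either diet. HFD and LFD embryos therefore shared the oocyte genotype and differed by the diet of the sire. Per the study's methods, few males of each diet were used, with other males on each fertilization date. The labels name neither the male, the date nor the sex of an embryo, so embryos were treated as replicates and the p-values measure the spread between embryos only. Embryos are named below by diet and by the number in their title.

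Mitochondrial DNA has been copied into the nuclear genome many times during evolution, and such insertions are usually silent relics without a promoter of their own. A young insertion can be nearly identical to the mitochondrial gene it came from, so that short reads of one fit the other. Mitochondria are inherited from the mother in mammals, and those that the sperm brings in are normally removed in the early embryo. In this cross the sperm carried mitochondrial DNA of the C57BL/6 type, which is also the type of the nuclear copies. The alignment used the ST sequence as the mitochondrial genome and left the nuclear copies in place, so reads of C57BL/6 mitochondrial RNA, of the nuclear copies and of their DNA cannot be told apart in these counts.

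The copies of the rule fill 4663 bases on the minus strand of chromosome 1 (chr1:24611535-24616197, GRCm38), and the annotation lists all 7 as unprocessed pseudogenes. They were compared with the mitochondrial genes of the GENCODE M21 transcripts, which carry the C57BL/6J sequence. Gm28439, Gm10222, Gm28437, Gm10925 and Gm28661 matched their mitochondrial partners without a difference over their whole length. Gm10925, the copy of mt-Atp6, took more of the copies' reads than any other in each copy-rich embryo. Its first 120 bases (chr1:24614532-24614651, minus strand) are shown because the same letters stand in the C57BL/6J mt-Atp6. This stretch does not separate the copy from that gene. The ST sequence, to which mitochondrial reads were aligned, was not compared with any copy of the block.
Gm10925: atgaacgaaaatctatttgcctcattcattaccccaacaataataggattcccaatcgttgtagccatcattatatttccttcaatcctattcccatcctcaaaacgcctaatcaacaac

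Gm28438 (345 bases, 99.7% identical to mt-Nd3) and Gm29216 (492 bases, 99.8% identical to mt-Co1 over 483 of them) each had a single difference. They are T3C and A1066T, with the base of the mitochondrial gene first, positions counted from 1 at the gene's 5′ end, and the base of the copy last. The stretches around them are shown with the differing base in capitals, Gm28438 at chr1:24613087-24613119 and Gm29216 at chr1:24616155-24616188, both on the minus strand.
Gm28438: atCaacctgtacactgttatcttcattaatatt
mt-Nd3: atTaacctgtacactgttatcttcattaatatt
Gm29216: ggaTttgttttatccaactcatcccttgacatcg
mt-Co1: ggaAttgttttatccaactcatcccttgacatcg

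Copies outside the rule were looked for among all annotated transcripts by shared runs of 31 bases. A further 9 genes of the count table shared at least 20 such runs with a mitochondrial gene, on chromosomes 2, 4, 6, 11 and 13. The ones that matter most below lie on chromosome 2, Gm13340 (chr2:22588103-22589647, minus strand, a copy of the whole of mt-Co1) and Gm13339 (chr2:22590024-22590533, minus strand, a copy of bases 529 to 1038 of mt-Nd2). Gm13340 was 97.6% identical to mt-Co1 over 1545 bases and Gm13339 was 96.7% identical to mt-Nd2 over 510 bases. The bases that differ from the C57BL/6J mitochondrial sequence are in capitals here. Reads were aligned to the ST mitochondrial sequence, which was not compared with these copies. Whether counts on these copies hold C57BL/6 mitochondrial reads was not tested. The first 120 bases of each copy, chr2:22589528-22589647 and chr2:22590414-22590533, each held 3 differences.
Gm13340: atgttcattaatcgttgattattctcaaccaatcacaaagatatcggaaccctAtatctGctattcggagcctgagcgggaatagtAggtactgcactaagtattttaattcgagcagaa
mt-Co1: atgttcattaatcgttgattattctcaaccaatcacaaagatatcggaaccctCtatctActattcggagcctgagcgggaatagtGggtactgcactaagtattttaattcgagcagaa
Gm13339: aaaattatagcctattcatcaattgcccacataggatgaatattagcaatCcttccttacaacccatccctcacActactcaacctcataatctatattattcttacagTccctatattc
mt-Nd2: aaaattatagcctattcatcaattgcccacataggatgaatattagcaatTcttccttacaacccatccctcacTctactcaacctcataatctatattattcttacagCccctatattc

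The copy share chose the members and is given as a description, without a test. HFD-78 had the highest share, 4.76% (95% Wilson interval 4.66 to 4.85%), from 9373 reads on the copies and 187685 on the mitochondrial partners. HFD-66 followed with 3.35% (3.26 to 3.45%), HFD-52 with 3.13% (3.06 to 3.22%) and HFD-104 with 2.47% (2.38 to 2.55%). HFD-112 had 1.21% (1.15 to 1.27%) and HFD-88 0.489% (0.460 to 0.521%). These intervals take each read as independent, and they are too narrow even for counting error. Both reads of a pair were counted, and reads amplified by PCR without molecular identifiers are not independent molecules. The 6 shares spanned almost an order of magnitude, and whether neighbours in this order differed was not tested.

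Just below the threshold, HFD-24 had a share of 0.123%, from 56 reads on the copies, and HFD-46 had 0.106%. The other HFD embryos ran from 0.0222 to 0.123% with a median of 0.0475%. LFD embryos ran from 0.0199 to 0.193% with a median of 0.0435%. LFD-73, at 0.193% (0.167 to 0.223%), came nearest to the threshold among LFD embryos, and it was also the library with the fewest counts of the series, 1937251. No HFD embryo lay between 0.123 and 0.489%. The copy-rich embryos were spread over the numbering: 2 of the 38 HFD embryos numbered 31 to 70 were copy-rich (5.26%), and 4 of the 84 with other numbers (4.76%).

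**Figure D1:**
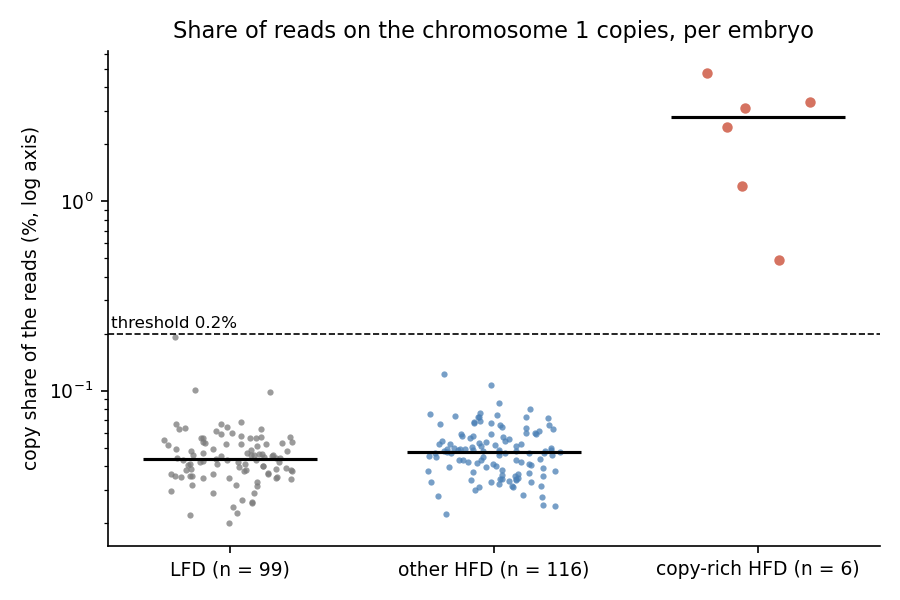
Copy share of each embryo (percent, log axis) for LFD, other HFD and copy-rich HFD embryos; points are embryos, thick lines are medians and the dashed line is the threshold of 0.2%. The copy-rich embryos sit between 0.489 and 4.76%, and the other embryos between 0.0199 and 0.193%.

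No difference in depth was detected. Total counts ran from 5003696 to 6164245 in the copy-rich embryos and from 2296020 to 13155271 in the other HFD embryos. The difference of the mean log2 total counts was -0.03 (copy-rich minus other, exact 2-sided permutation test, p = 0.803, adjusted p = 0.931 over 6 comparisons). Between 15564 and 20070 genes had a count in the copy-rich embryos, 18593 ± 1618 (mean ± SD, n = 6), against 18495 ± 1618 in the other HFD embryos (n = 116, exact permutation p = 0.886, adjusted p = 0.931). The embryo identity of the libraries was plain in every copy-rich embryo: maternal oocyte genes such as Zar1, Ooep and Kpna7 summed to between 11334 and 15705 counts in each 1000000 (CPM), and 2-cell genes such as the Zscan4 and Tdpoz families to between 3079 and 5519 CPM, both within the range of the other HFD embryos.

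The copies of the rule were high together in the copy-rich embryos, though not at the same level. Gm10925, the copy of the ATP synthase subunit gene mt-Atp6, stood at 827 CPM in HFD-78, 596 in HFD-66, 535 in HFD-52, 309 in HFD-104, 128.6 in HFD-112 and 72.3 in HFD-88. The other HFD embryos reached at most 14.3 CPM and LFD embryos at most 39.2. Gm10925 is a gene of the rule and helped to choose the members, so this lack of overlap is a description only. Gm28437, the copy of the cytochrome c oxidase subunit gene mt-Co3, stood at 455, 121.8, 116, 77.3, 37 and 35.1 CPM in the same order of embryos, against at most 7.22 in the other HFD embryos. Gm29216, the copy of the end of mt-Co1, which encodes the catalytic subunit of that enzyme, stood at 178, 95.5, 110, 65.5, 19.5 and 21.4 CPM, against at most 10.3. HFD-78 was highest for each of these copies and HFD-112 and HFD-88 were lowest.

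Gm28661, the copy of the oxidase subunit gene mt-Co2, ran from 20.4 to 213 CPM in the copy-rich embryos and reached at most 5.86 in the other HFD embryos. Gm28439 and Gm10222 are copies of mt-Nd4 and mt-Nd4l, which encode subunits of complex I. They ran from 7.2 to 113.5 and from 3.16 to 60.4 CPM, against at most 6.09 and 0.956 in the other HFD embryos. Gm10222 had no read in 82 of the 116 other HFD embryos. Gm28438, the copy of the complex I gene mt-Nd3 and the shortest but one of the block, overlapped between the groups: it ran from 3.08 to 26.8 CPM in the copy-rich embryos and reached 5.86 CPM in another HFD embryo, with 4 of 6 above that value. Per kilobase, the mean level of Gm10925 in the copy-rich embryos was 607 CPM, followed by Gm28437 with 179 and Gm29216 with 166, and Gm28438 was lowest with 36.

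The make-up of the copies' reads overlapped between the groups. Gm10925 gave between 42.4 and 62.5% of the copies' reads in the copy-rich embryos (median 53.2%), and between 12 and 52.8% in the other HFD embryos (median 30.3%). Gm29216 gave between 8.32 and 12.6% (median 10.5%), and between 10.8 and 66% in the other HFD embryos (median 26.9%). The mitochondrial partners stood in similar proportions in both groups: mt-Atp6 made up a median of 30.9% of the 7 partners' reads in the copy-rich and 30.1% in the other HFD embryos, and mt-Co1 29.7% and 31.5%. These values belong to the genes of the rule and were not tested.

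Set against its own partner, each copy took a different share of the pair. In all 6 copy-rich embryos the pair Gm10925 and mt-Atp6 had the highest share and the pair Gm29216 and mt-Co1 the lowest. In HFD-78 the copy took 7.48% of the first pair and 1.65% of the second, and in HFD-88 0.95% and 0.2%. The ratio of the highest to the lowest pair lay between 4.37 and 4.75 in 5 embryos and was 6.01 in HFD-112. Gm29216 covers only the last part of mt-Co1 and Gm28439 the first 876 of 1378 bases of mt-Nd4, and these were the pairs with the lowest median shares, 1.05 and 1.44%. Other pairs moved against the Gm10925 pair: Gm10222 took 7.27% of its pair in HFD-78, close to the 7.48% of Gm10925, and 0.503% in HFD-88, further below 0.95%.

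**Figure D2:**
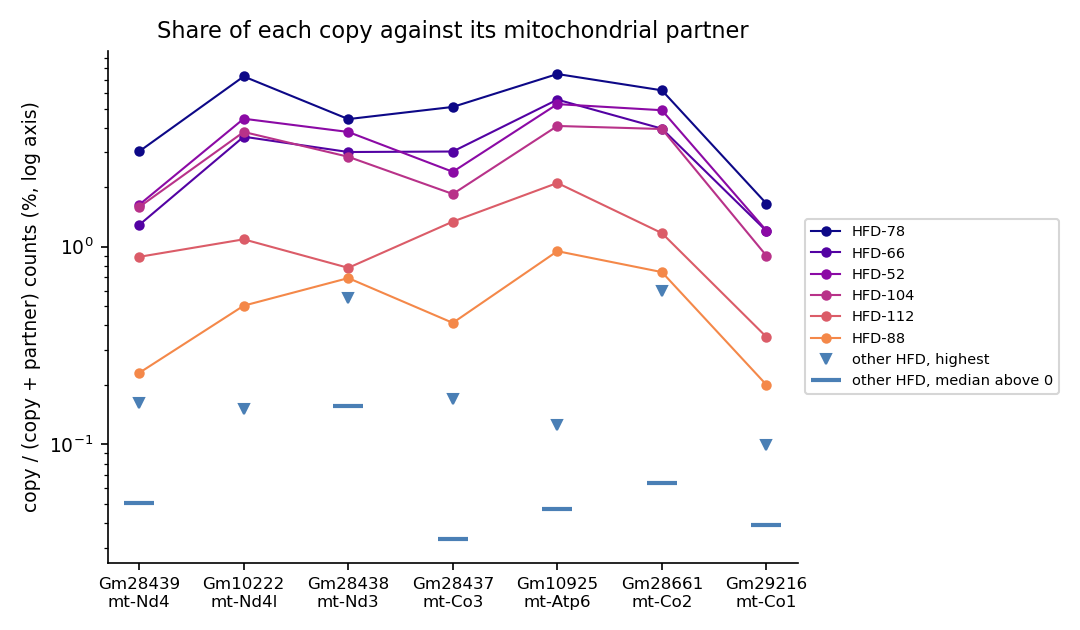
Share of each copy in the reads of the copy and its mitochondrial partner (percent, log axis) for the 7 pairs of the rule; coloured lines are the 6 copy-rich embryos, triangles the highest and bars the median (where above 0) of the other HFD embryos. In every copy-rich embryo the Gm10925 pair is highest, up to 7.48% in HFD-78, and the Gm29216 pair lowest, down to 0.2% in HFD-88.

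Some other copies of mitochondrial genes, on other chromosomes, were also more abundant in the copy-rich embryos. The rule did not use these genes, but they resemble mitochondrial genes as its members do, so they are a second reading of the same kind of sequence. Gm13340 and Gm11512 are copies of mt-Co1 and Gm13341 of mt-Co2, and the rule used both of these mitochondrial genes. Gm13339, the copy of part of mt-Nd2, stood at 59.2 CPM in HFD-78, 21.2 in HFD-66, 35.1 in HFD-52, 18.4 in HFD-104, 5.52 in HFD-112 and 4.56 in HFD-88, from 26 to 296 reads. The highest of the other HFD embryos had 1.11 CPM and the highest LFD embryo 2.11 CPM, and 40 of the 116 other HFD embryos had no read. The 6 copy-rich embryos were thus the 6 highest of the series. Among the 14811 genes tested below, 0 (0%) had all 6 above the highest other HFD embryo. Gm13339 had too few reads to be among them, so this share does not cover genes of its level. On the scale of log2(CPM + 0.5), the copy-rich mean was 4.11 ± 1.40 (SD, n = 6) and the mean of the other HFD embryos was -0.48 ± 0.48 (n = 116), a difference of 4.59 (exact 2-sided permutation test over embryos, p = 2.47e-10, the smallest that 6 against 116 embryos can give).

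Gm13340, the copy of mt-Co1 next to Gm13339 on chromosome 2, had 136 CPM in HFD-78, 52.7 in HFD-66, 98.5 in HFD-52, 45.2 in HFD-104, 13.6 in HFD-112 and 15.6 in HFD-88. The other HFD embryos had a median of 5.40 CPM and at most 14.8, so that HFD-112 lay just inside their range and the other 5 above it. The difference of means on the log2(CPM + 0.5) scale was 2.98 (exact permutation p = 1.24e-09). Gm4076, a copy of part of mt-Nd5 on chromosome 13, had 66, 70, 54, 22, 15 and 2 counts in the same order of embryos, and the other HFD embryos had at most 6. It differed by 3.07 on that scale (exact permutation p = 7.17e-09), and HFD-88 lay within the range of the other embryos.

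The remaining copies outside the rule had few reads. Gm11410, a copy of mt-Cytb, had 34, 12, 10, 4, 0 and 0 counts in the same order of embryos, with 3 of 6 above the highest other HFD embryo (difference 1.54, exact permutation p = 9.50e-06). Gm11408, a copy of mt-Nd6 next to it on chromosome 4, had 8, 2, 6, 4, 0 and 0 counts (difference 0.90, exact permutation p = 1.62e-05). Gm11407, a second copy of part of mt-Nd5, had 4 counts in HFD-78 and in HFD-52 and 0 in the others (difference 0.39, exact permutation p = 0.00739, at most 0.0925 without a copy-rich embryo). Gm13341, Gm20594 and Gm11512, copies of parts of mt-Co2, mt-Rnr2 and mt-Co1, had at most 6 counts in a copy-rich embryo, and no difference was detectable at this depth over all HFD embryos (exact permutation p = 0.226, 0.0963 and 0.176). In all, 9 genes were compared in this way and their p-values are not adjusted.

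The reads on these copies were set against those of the chromosome 1 block. For each 100 reads on the block, Gm13339 had between 2.23 and 3.64 in the copy-rich embryos, and Gm13340 between 5.52 and 10.2. In the other HFD embryos, summed, Gm13340 had 39.9 reads for each 100, several times the ratio in any copy-rich embryo, while for Gm13339 the summed value was 1.94. In LFD embryos, summed, the values were 44.8 for Gm13340 and 4.14 for Gm13339, the latter above each copy-rich embryo. The order of the 6 embryos was the same for Gm13339 as for the share except that HFD-52 stood above HFD-66. Of mt-Nd2 and Gm13339 reads together, Gm13339 took between 0.360 and 4.32% in the copy-rich embryos, against 0.0196% in the other HFD embryos summed. The difference was present within and outside numbers 31 to 70. Among embryos 31 to 70 (2 copy-rich) Gm13339 differed by 5.13 (exact permutation p = 0.00142, the smallest possible there). Among the others (4 copy-rich) it differed by 4.31 (exact permutation p = 5.18e-07, likewise the smallest possible).

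In the embryos next to the threshold Gm13339 had few reads. HFD-24 had 0 reads on it, HFD-46 had 3 and LFD-73 had 1, whereas LFD-73 had 82 reads (42.3 CPM) on Gm13340 and 4 on Gm4076. With 56 reads on the block in HFD-24, a ratio like that of the copy-rich embryos was not detectable at this depth. In HFD-46 the ratio of Gm13339 to block reads lay within the range of the copy-rich embryos, but it rests on 3 reads.

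**Figure D3:**
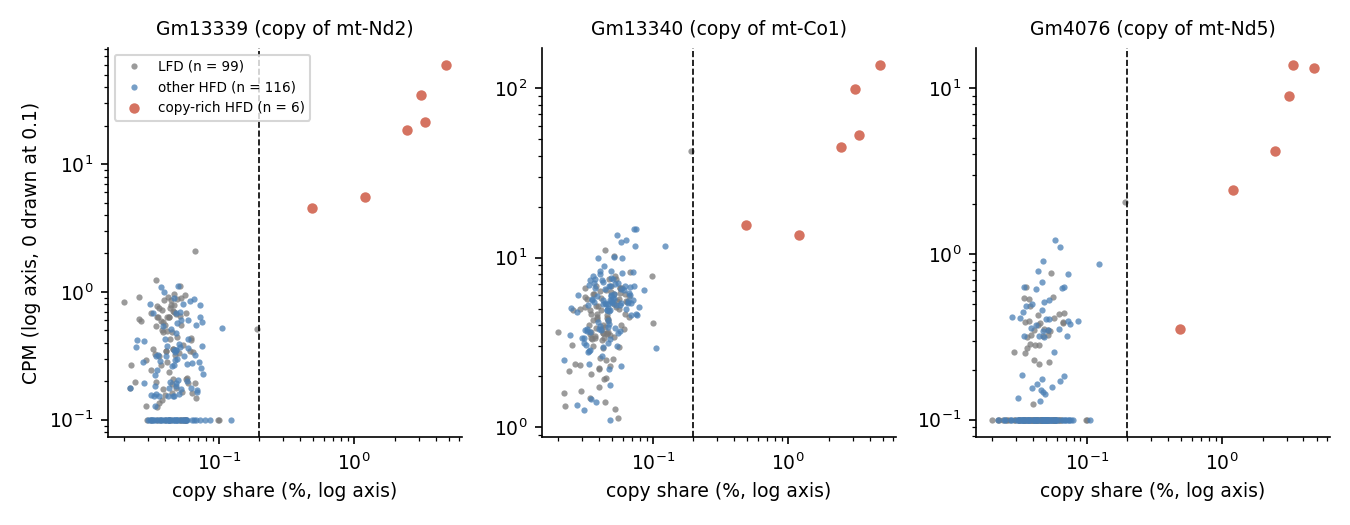
CPM of 3 copies outside the rule (log axis, 0 drawn at 0.1) against the copy share of each embryo (percent, log axis); colours are LFD, other HFD and copy-rich HFD embryos and the dashed line is the threshold. The 6 copy-rich embryos hold the 6 highest values of Gm13339, from 4.56 to 59.2 CPM, while LFD-73, next to the threshold, stands high for Gm13340 (42.3 CPM) and not for Gm13339.

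Genes around the chromosome 1 block were examined next. Within 500 kb there were 11 other genes, of which 3 had a read in most embryos. Lmbrd1, which encodes a lysosomal cobalamin transporter, had a median of 6.16 CPM in the copy-rich and 5.99 in the other HFD embryos. Adgrb3, an adhesion receptor gene that overlaps the window, had 9.50 and 11.5 CPM. Col19a1, a collagen gene upstream in coordinate order, had 19.2 CPM in HFD-78, 5.50 in HFD-66, 6.34 in HFD-52, 15.2 in HFD-104, 7.46 in HFD-112 and 16.9 in HFD-88, against a median of 4.58 and a highest value of 18.3 in the other HFD embryos. All 6 were above that median, HFD-78 was above the highest other HFD embryo, and the ranges overlapped (log2 fold change 1.21, SE 0.47, edgeR FDR 0.677). None of these genes was called in the comparison across all genes described next.

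Across the transcriptome, few genes passed the test between the copy-rich and the other HFD embryos, which does not show that the other genes were equal. Of 14811 genes tested with edgeR, the genes of the rule left out, 2 passed a false discovery rate (FDR) of 0.05, which is 0.0135% of the genes tested, and both were higher in the copy-rich embryos. The first was Gm13340, the mt-Co1 copy described above, at 3.37 on the log2 scale (SE 0.22, FDR 1.83e-26 by edgeR). The second was Clu, described below. Gm13339 had too few reads over all libraries to enter this test. An unadjusted p under 0.05 was reached by 988 genes, 6.67% of those tested. In 0 of the 14811 genes (0%) were all 6 copy-rich embryos above the highest other HFD embryo. DESeq2 called 3 genes, of which Gm13340 was higher and 2 were lower, and limma-voom called 13, of which 12 were higher. The 2 lower genes with DESeq2 were Fmo5 (-6.17, FDR 0.00426) and Rfx2 (-1.74, FDR 0.00426), named because they were called there. Both lay below the other HFD median in all 6 copy-rich embryos, Fmo5 with 0 CPM in each. With edgeR each had an FDR of 0.220.

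With edgeR and genes filtered by the copy-rich division, which admits genes on their level in the 6 embryos, 20815 genes were tested and 7 called. They included Gm13340, Clu and Gm13339, which entered only through its level in the copy-rich embryos, so this call is no test of it. The other 4 rested on 1 library each, and they were named after their values were seen. Olfml2b, Pdcd1 and Aldh1a1 had 47.6, 75.1 and 50.4 CPM in HFD-78 and at most 1.52 CPM in the other 5, and Gm37234 had 39.4 CPM in HFD-52 and at most 1.05 in the others.

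Clu encodes clusterin, an extracellular chaperone that is abundant in the male tract, on sperm and in many epithelia. It was at 410 CPM in HFD-78, 7.02 in HFD-88, 5.70 in HFD-104, 3.51 in HFD-52, 0.324 in HFD-112 and 0 in HFD-66. The other HFD embryos had a median of 1.44 and at most 24.5 CPM, so a single copy-rich embryo stood outside their range. Its log2 fold change of 4.89 (SE 0.54, edgeR FDR 1.94e-11) fell to 0.39 (FDR 0.966) without HFD-78. With limma-voom it was 1.73 (FDR 0.510), and DESeq2 gave no adjusted p for this gene. Clu has a mean level below the minimum set for naming and was named because so few genes were called. Of the 15 sperm and testis markers 3 were tested and Clu was called. Of the others, 6 had 0 reads in all 6 copy-rich embryos: Tnp1, Tnp2, Smcp, Spaca1, Crisp2 and Spata18. Prm1, Prm2, Odf1, Akap4, Gapdhs and Acrv1 were not tested. Each of these had reads in at least 1 copy-rich embryo, and none passed the highest other HFD embryo. Oaz3 and Ldhc had log2 fold changes of -0.31 and 0.14.

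**Figure D4:**
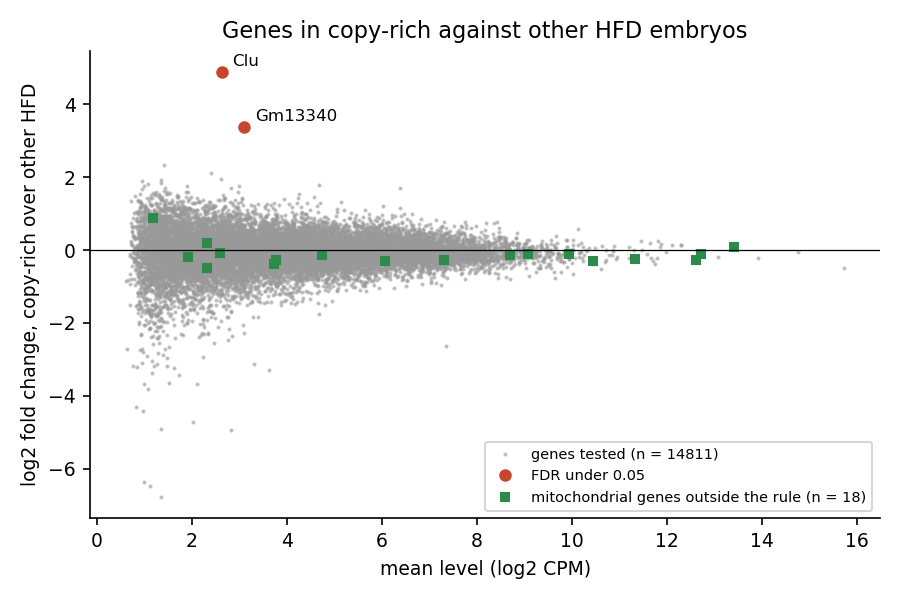
Log2 fold change of each of the 14811 genes tested (copy-rich over other HFD embryos) against its mean level (log2 CPM), with the 2 genes at an edgeR FDR under 0.05 in red and the 18 mitochondrial genes outside the rule in green. Gm13340 and Clu stand apart at 3.37 and 4.89, and the mitochondrial genes lie between -0.49 and 0.87.

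For mitochondrial transcripts outside the rule, no difference was detected and the copy-rich embryos lay within the range of the others. The 22 mitochondrial tRNAs, which carry amino acids to the mitochondrial ribosome, summed to 549 CPM in HFD-78, 578 in HFD-66, 674 in HFD-52, 465 in HFD-104, 306 in HFD-112 and 564 in HFD-88, around the median of 527 CPM of the other HFD embryos. On the log2 scale the difference was -0.04 (copy-rich minus other, exact permutation p = 0.850, adjusted p = 0.931). Without mt-Ts1, the most abundant of them in these libraries, it was -0.10 (exact permutation p = 0.776). The 2 mitochondrial rRNAs summed to between 4902 and 10316 CPM, against a median of 6818, a difference of 0.02 (exact permutation p = 0.931). The 6 mitochondrial mRNAs outside the rule summed to between 16003 and 26449 CPM, against a median of 19368, a difference of 0.06 (exact permutation p = 0.773). The adjusted p was 0.931 for each.

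The same genes were also tested singly. Of the 6 mRNAs outside the rule, 0 were called, with a median log2 fold change of -0.27 beside -0.04 for all genes tested. mt-Nd1, mt-Nd2, mt-Nd5 and mt-Nd6, which encode complex I subunits, had values of -0.28, -0.30, -0.26 and -0.28, with SEs of 0.23 to 0.32. mt-Atp8, of ATP synthase, had -0.10 (SE 0.29), and mt-Cytb, of complex III, had 0.07 (SE 0.31). The rRNA genes mt-Rnr1 and mt-Rnr2 had -0.11 (SE 0.38) and -0.10 (SE 0.26). Of the 22 tRNA genes 10 had enough reads to be tested and 0 were called, with a median of -0.16. The gene mt-Nd2, the partner of Gm13339, ran from 748 to 1721 CPM in the copy-rich embryos, with 3 of 6 above the median of 1226 CPM of the other HFD embryos.

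**Figure D5:**
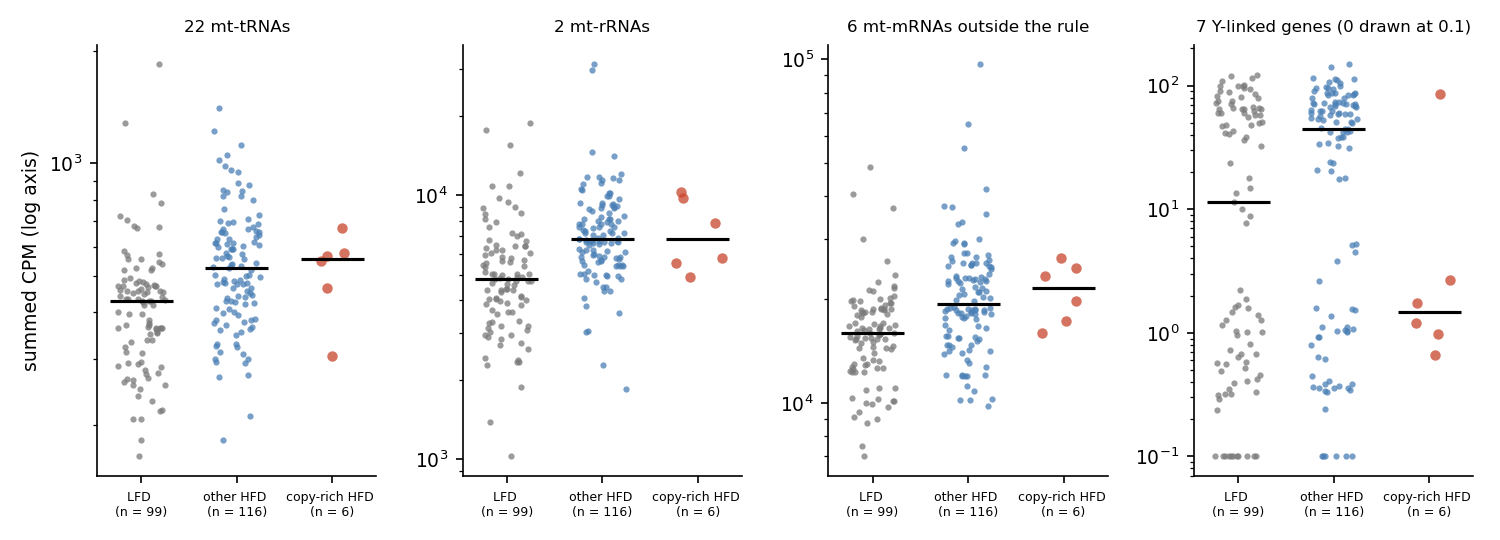
Summed CPM (log axis) of the mitochondrial tRNAs, the mitochondrial rRNAs, the 6 mitochondrial mRNAs outside the rule and the Y-linked genes (0 drawn at 0.1) in LFD, other HFD and copy-rich HFD embryos; points are embryos and thick lines medians. The mitochondrial sums of the copy-rich embryos lie within the range of the other HFD embryos, and 5 of the 6 have under 10 CPM of Y-linked RNA.

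Nuclear genes that serve the mitochondrion were compared by list, each count beside the 0.0135% called over all genes and each median beside -0.04. Complex I is built from nuclear and mitochondrial subunits. Of its nuclear subunits and assembly factors 36 were tested and 0 called, with a median log2 fold change of 0.00 and with Ndufb11 (0.48, SE 0.26) and Ndufa7 (0.62, SE 0.36) among the smallest p. Of 43 genes of complexes II to V, 0 were called, with a median of 0.09. Of 32 genes that transcribe, process or replicate the mitochondrial genome 0 were called, with a median of 0.08. Among them Prorp, the nuclease that cuts the 5′ ends of mitochondrial tRNA precursors, had 62.4, 40.9, 82, 50.7, 58.7 and 83.7 CPM in the copy-rich embryos from HFD-78 to HFD-88, all above the median of 33 CPM of the other HFD embryos and all within their range. Its log2 fold change was 0.81 (SE 0.20, edgeR FDR 0.220), and it was called with limma-voom (0.85, FDR 0.0179).

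Mgme1, a nuclease of mitochondrial DNA maintenance, had 0.74 (SE 0.30, edgeR FDR 0.718) and was above the other HFD median in 6 of 6 embryos. Of 24 mitophagy genes, which mark and engulf damaged or sperm-derived mitochondria, 0 were called, with a median of 0.05. Bnip3l had -0.33 (SE 0.17), Phb2 -0.36 (SE 0.19) and Vcp 0.52 (SE 0.28), each with an edgeR FDR of 0.748 or 0.751. Of 23 genes of the mitochondrial stress responses 0 were called, with a median of 0.01. Trib3 (0.72, SE 0.36) and Psat1 (0.61, SE 0.28), targets of the integrated stress response, had FDRs of 0.746 and 0.742.

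Genes that mark the stage were examined in the same way. Of 19 maternal oocyte genes 0 were called, with a median of -0.16, and Zar1 (-0.84, SE 0.38, edgeR FDR 0.738) had the smallest p. Of 27 genes of the 2-cell stage 0 were called, with a median of -0.05 and values from -0.61 to 0.54. A count of 0 called does not show that these genes were equal.

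Markers of other cells that could share the tube were examined by list. The 23 macrophage markers summed to between 106.3 and 179 CPM in the copy-rich embryos. The other HFD embryos had a median of 138 and a highest value of 7808 CPM. Of these markers 8 were at 0 in all 6 copy-rich embryos: Adgre1, Tyrobp, C1qa, C1qc, Itgam, Mpeg1, Aif1 and Ptprc. They were picked for having no read, and other markers of the list had reads there. C1qb ran from 1.14 to 9.68 CPM in the 6, against a median of 5.79 in the other HFD embryos. Cd68 ran from 0 to 3.04 CPM, against a median of 3.12. The median log2 fold change of the 11 macrophage markers tested was -1.12, with Cd68 at -3.29 (SE 1.40, edgeR FDR 0.725). The 19 cumulus and granulosa markers summed to 356 CPM in HFD-78 and to at least 124.8 in each of the others, against 74.1 to 462 in the other HFD embryos, and 0 of the 6 tested were called (median -0.57). The smallest p of the list belonged to Nr5a2 (0.55, SE 0.24), Star (-1.60, SE 0.87) and Amhr2 (0.82, SE 0.49), with edgeR FDRs from 0.725 to 0.773. Some members were high in HFD-78 alone among the copy-rich embryos, and they were picked after their values were seen. In HFD-78 the steroid enzymes Hsd3b1 and Cyp11a1 stood at 111.5 and 63.8 CPM and Inha, the inhibin subunit, at 14 CPM. The other 5 copy-rich embryos had at most 1.30 CPM of each of these, and among the other HFD embryos the highest values were 175, 144 and 23.3 CPM. In the same embryo Foxl2, Cyp19a1, Fshr, Lhcgr, Ptx3, Ereg and Areg were at 0, and Star stood at 2.00 CPM and Serpine2 at 44.8, near or below the other HFD medians of 2.20 and 58.5. HFD-78 was also the embryo with the highest Clu, Olfml2b, Pdcd1 and Aldh1a1. The part of these genes in its copy share was not tested, and Gm13340 had a log2 fold change of 2.91 (edgeR FDR 1.02e-17) without it.

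The lists for oviduct epithelium, fibroblasts and red blood cells held 0 called genes among 5, 1 and 2 tested, with medians of -0.24, 0.13 and 0.01. Their summed levels in the copy-rich embryos, 235 to 518, 0 to 10.3 and 5.52 to 24.2 CPM, lay within those of the other HFD embryos. Single markers passed the highest other HFD embryo in 1 copy-rich embryo each: Foxl2 (2.75 against 1.66 CPM), Nr5a2 (169 against 161), Pax8 (5.20 against 3.14) and Lum (2.28 against 2.27), beside Clu. The sperm and testis sum, 421 CPM in HFD-78, stood above the highest of the other HFD embryos, 38.1 CPM, and of the LFD embryos, 114.8 CPM. Epcam, an adhesion molecule that early embryos also express, had the smallest p of these lists (0.78, SE 0.32, edgeR FDR 0.718).

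Y-linked RNA was below 10 CPM in most of the copy-rich embryos. The 7 genes, which include Uty, Zfy1 and Eif2s3y, summed to 85.1 CPM in HFD-66, 2.66 in HFD-104, 1.76 in HFD-88, 1.20 in HFD-78, 0.973 in HFD-112 and 0.668 in HFD-52. Thus 5 of 6 (83.3%) lay below 10 CPM, a limit set after the values were seen, against 40 of 116 other HFD embryos (34.5%) and 48 of 99 LFD embryos (48.5%). Below 1 CPM lay 2 of 6, against 24 of 116 other HFD and 33 of 99 LFD embryos. Usp9y had the smallest p (log2 fold change -4.95, SE 1.56, edgeR FDR 0.508), the median of the 6 genes tested was -1.58, and 0 were called. Xist, the RNA that coats the inactive X chromosome in female cells, ran from 0 in HFD-66 to 15.3 CPM in HFD-88, against a median of 1.48 and a highest value of 22 CPM in the other HFD embryos. The part of embryo sex in the copy share was not tested, as the labels do not give it. With the Y-linked level as a covariate, Gm13340 had a log2 fold change of 3.29 (edgeR FDR 4.08e-23).

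Genes on the X chromosome were then set beside autosomal genes. Of 486 X-linked genes tested, 80 had an unadjusted p under 0.05 (16.5%), 57 of them higher in the copy-rich embryos, with a median log2 fold change of 0.14. Of 14298 autosomal genes 6.34% had such a p, with a median of -0.04. With the Y-linked level as a covariate the X-linked median was -0.02 and 10.5% had such a p, against 8.25% of autosomal genes. This split by chromosome was made after values had been seen and is given without a test.

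Against the LFD embryos, the copy-rich embryos were compared to place them beside the other diet, and this comparison uses the same 6 embryos as the first. Of 14811 genes 8 were called (0.054%), 7 higher in the copy-rich embryos (0.0473%) and 1 lower. Gm13340 was again higher (log2 fold change 3.64, SE 0.25, edgeR FDR 4.93e-23), with 4 of 6 above the highest LFD embryo. Clp1, an RNA kinase of pre-mRNA cleavage and tRNA splicing, stood at 380, 293, 404, 310, 319 and 656 CPM from HFD-78 to HFD-88, against a median of 234 and a highest value of 374 in LFD embryos (0.77, SE 0.16, FDR 0.0222). Anp32e, a chaperone that removes the histone variant H2A.Z, ran from 146 to 230 CPM, against a median of 120 (0.67, SE 0.14, FDR 0.0222). Both were above the LFD median in all 6.

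Rbmx, an X-linked splicing factor gene, stood at 186, 40.1, 200, 163, 172 and 313 CPM, against an LFD median of 78.4 (1.13, SE 0.25, edgeR FDR 0.0294), and the low value belongs to HFD-66, the embryo with Y-linked RNA. Gm42596 (1.75, SE 0.33, FDR 0.00265), Zfp869 (1.26, SE 0.27, FDR 0.0272) and Clu (4.55, SE 0.65, FDR 1.64e-06) were also higher. Rfx2, a transcription factor gene of cilia and spermatids, was lower, at 2.67 to 19.8 CPM against a median of 24.2 (-1.77, SE 0.40, FDR 0.0481), with 6 of 6 below the LFD median. These genes other than Gm13340 were named because they were called here. Leaving out HFD-78 left 1 gene called, leaving out HFD-88 2 and HFD-52 4, and leaving out HFD-112, HFD-66 or HFD-104 gave 14, 18 and 18.

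Within the LFD embryos, which the rule did not use to choose members, genes were tested for a slope on log2 of the copy share. Of 14811 genes 166 were called (1.12%), 161 with slopes above 0 and 5 with slopes below 0. Without LFD-73 and LFD-83, the 2 embryos farthest from the median share, 0 were called with edgeR, and with log2 total counts as a covariate 12. Gm13340 rose by 1.09 log2 units for each doubling of the share plus 0.01% (SE 0.15, edgeR FDR 1.79e-07). Without those 2 embryos its slope was 0.75 (unadjusted p 0.00160, FDR 0.917). Other copies outside the rule entered only without the filter on low counts. There Gm13339 had a slope of -0.17 (SE 0.47), Gm11410 -0.56 (SE 0.38), Gm11407 -0.04 (SE 0.40), Gm11408 0.33 (SE 0.17), Gm13341 0.91 (SE 0.59) and Gm4076 1.32 (SE 0.55), with edgeR FDRs of at least 0.178.

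Among the genes called with a mean of 3 log2 CPM or more, which leaves out Gm13340, the largest slopes were those of Olfr624 (1.61, SE 0.14), Gm37110 (1.33, SE 0.12), Gm38383 (1.02, SE 0.16), Npm3 (0.90, SE 0.20) and Tmed9 (0.88, SE 0.16). The most negative were those of Gm10800 (-1.78, SE 0.46), Cds2 (-1.33, SE 0.33), Rps6ka1 (-1.12, SE 0.30), Tcf3 (-0.61, SE 0.17) and Pom121 (-0.44, SE 0.10). Their edgeR FDRs ran from 4.03e-17 for Olfr624 to 0.0393 for Tcf3. The shares of LFD-73 and LFD-83, on which these calls hang, were 0.193 and 0.101%.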

How the data were processed

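The authors deposited raw read counts for each gene of each embryo, made from paired Smart-seq2 reads. Per the study's methods and the labels, adaptors were removed with Trim Galore 0.6.6, quality was assessed with MultiQC 1.11, and reads were aligned with STAR 2.7.10a to GRCm38 with the mitochondrial sequence replaced by that of the ST line. Per the file headers, featureCounts 2.0.3 counted each read of a pair over Ensembl 102 exons with strand setting 2, both ends aligned. Reads with several alignments were left out by default, which lowers counts of near-identical copies and of their partners.

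Genes (55291) were tested with edgeR 4.0.16 under R 4.3.3, with TMM scaling, the quasi-likelihood test and genes kept by filterByExpr with diet as the group; an FDR of 0.05 after Benjamini-Hochberg adjustment was the limit. Log2 fold changes are copy-rich over the comparison group. Levels were compared by exact 2-sided permutation tests of log2(CPM + 0.5), with values rounded to 4 decimals. CPM are counts in each 1000000 of all counts of the library. The scripts were first tested on simulated data. Named genes are those called whose mean reached 3 log2 CPM, up to 3 members of each list by smallest p, mitochondrial genes and copies, genes within 500 kb of the copies and, for the slope, 5 in each direction; 1 gene that this rule names is not reported here. The members and lists were chosen with earlier results of these data known. Alternatives used DESeq2 1.42.0, limma 3.58.1, other filters, thresholds and covariates. Python 3.11.15 with scipy 1.17.1 served for other steps. Total counts ran from 1937251 to 17246791 per embryo.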

Additional observations from a re-analysis of the deposited data

Results flagged for a closer look

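Within the 6 copy-rich embryos, 26 measures were searched for a highest or lowest embryo far from the nearest other relative to the whole range (Dixon's critical value 0.625), which chance meets in about 1 group of 20. The summed sperm and testis markers of HFD-78 stood at 8.72 on the scale of log2 CPM, against 3.45 to 4.65 in the other 5, and Clu gave nearly all of it. The summed Y-linked genes of HFD-66 stood at 6.42 on that scale, against 0.22 to 1.66 in the others. Gm20594 stood at -0.26 in HFD-52 and Gm11512 at -0.18 in HFD-104, against -1 in the other 5, and each rests on 2 reads.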

How the results depend on the processing

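Gm13340 was higher in the copy-rich than in the other HFD embryos under every alternative tried, by 2.91 to 3.58 on the log2 scale. The number of genes called in that comparison, 2 as reported, was 3 with DESeq2, 13 with limma-voom, 809 without a filter on low counts, 7 with genes filtered by the copy-rich division, 6 without embryos with few genes, 1 within numbers 31 to 70, 12 outside them and 1 without the highest share, and 1 to 4 when a copy-rich embryo was left out. Clu was -0.56 within numbers 31 to 70 and not called. Against LFD embryos, 8 as reported, it was 90 with DESeq2 (21 higher, 69 lower), 1194 without a filter and 1 to 18 when an embryo was left out. The slope in LFD embryos, 166 calls as reported, gave 295 with RLE size factors, 2003 without a filter (821 positive, 1182 negative), 12 with total counts as a covariate and 0 without LFD-73 and LFD-83 (763 at an unadjusted p under 0.05).

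With the replicate block on embryo number, which keeps only numbers present in both diets, 0 genes were called with edgeR against LFD embryos (875 at an unadjusted p under 0.05), and 0 among the same embryos without the block (981). Gm13340 was then 3.06 (FDR 0.836) and 3.46 (FDR 0.222). The deviations of same-numbered embryos correlated between -0.016 and 0.021, so the numbers were not taken as pairs. Leaving embryos out was chosen after seeing the data, as was the fit of the same embryos without the block.

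Small differences changed sign. With a threshold of 0.1% the mitochondrial rRNAs were at -0.0340, the mitochondrial mRNAs at -0.0272 and genes with a count at -252. With 0.5% the tRNAs without mt-Ts1 were at 0.0026 and the rRNAs at -0.10. The rRNAs were at -0.0514 within numbers 31 to 70 and at -0.0749 without the highest share. With a copy-rich embryo left out, the tRNAs ran from -0.12 to 0.10 (from -0.31 to 0.11 without mt-Ts1), the rRNAs from -0.0906 to 0.12, the mRNAs from -0.00687 to 0.14, log2 total counts from -0.07 to -0.01, genes with a count from -198 to 703, Gm11512 from -0.0593 to 0.10 and Gm20594 from -0.0146 to 0.13. The cause of these changes was not tested. Keeping LFD embryos above the threshold was not run, as there were 0. Depth limits the copies outside the rule other than Gm13339, Gm13340 and Gm4076, which had at most 34 reads in an embryo.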
